A study of Mus musculus with 3 samples.

Results

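Macrophages exposed to bacterial products redirect the tricarboxylic acid cycle intermediate cis-aconitate and the amino acid arginine into effector metabolites, and the 9 genes described here encode the enzymes and the transporter of these routes. They were the itaconate gene Acod1, the nitric oxide synthase gene Nos2, the arginase genes Arg1 and Arg2, the citrulline recycling genes Ass1 and Asl, the arginine transporter gene Slc7a2, the cofactor gene Gch1 and the polyamine gene Odc1. They were taken by symbol for their role, under a rule that has no threshold on a measured value, and all 9 were found among 55418 annotated gene symbols. The RNA was total RNA depleted of ribosomal RNA, taken from the cytosolic fraction of macrophages grown from bone marrow (BMDM) of C57BL/6J mice. The cells had received lipid A, the membrane-anchoring part of lipopolysaccharide that activates Toll-like receptor 4, at a dose of 100 ng/ml and for a time of 90 min. There is 1 group, of 3 libraries numbered 1 to 3 as biological replicates in the labels. No genetic change is given in the labels, which list the same donor identifier for all 3 libraries and record neither sex nor age. They do not say whether the libraries came from separate cultures, so the errors and p-values below measure the spread between these libraries, part of which may be technical. No untreated cells, later times or nuclear RNA were analysed here, and a level therefore does not show that lipid A changed it.

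Acod1 encodes aconitate decarboxylase 1, a mitochondrial enzyme that makes itaconate from cis-aconitate. Itaconate inhibits succinate dehydrogenase and activates the antioxidant factor NRF2. Arginine enters the cell through cationic amino acid transporters such as the product of Slc7a2 (CAT2) and is contested by nitric oxide synthase, which yields nitric oxide and citrulline, and by the arginases, which yield urea and ornithine. Citrulline is turned back into arginine by argininosuccinate synthase (Ass1) and argininosuccinate lyase (Asl), ornithine is turned into the polyamine putrescine by ornithine decarboxylase (Odc1), and GTP cyclohydrolase (Gch1) starts the synthesis of tetrahydrobiopterin, the cofactor that nitric oxide synthases need. In mouse macrophages Nos2 is the classic gene of activation by lipopolysaccharide and interferon, and Arg1 that of activation by interleukin 4.

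The transcripts of Slc7a2 bear on the results most directly at sequence level, because its 4 full-length annotated transcripts use 1 of a pair of alternative coding exons. The pair encodes the stretch in which the high-affinity and low-affinity forms of CAT2 are known to differ; which exon belongs to which form was not assigned here. Both exons lie on the plus strand of chromosome 8 (mm10, GENCODE M21), each as the coding exon numbered 6 from the start codon, and they were read from the annotated transcripts. Exon A is in Slc7a2-202 and Slc7a2-203 (chr8:40908056-40908195, 140 bases), and exon B is in Slc7a2-201 and Slc7a2-204 (chr8:40908398-40908534, 137 bases). Aligned end to end, they shared 84 identical bases over 140 columns, or 60.0%. They read 5′ to 3′ as follows, with no letter marked.
Slc7a2 exon A: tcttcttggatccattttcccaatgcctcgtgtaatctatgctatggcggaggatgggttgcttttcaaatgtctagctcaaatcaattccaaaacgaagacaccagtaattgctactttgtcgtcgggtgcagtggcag
Slc7a2 exon B: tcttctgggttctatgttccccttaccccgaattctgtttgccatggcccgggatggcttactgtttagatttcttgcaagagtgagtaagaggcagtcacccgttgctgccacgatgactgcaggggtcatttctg

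Levels were measured as TPM (a share of all transcripts quantified in a library, corrected for length), and can therefore be compared between genes of a library. The libraries held 33821479 to 59390843 expected counts. The reference for a level was the median over the 8747 protein-coding genes whose mean reached 1 TPM, and stood at 7.38, 6.08 and 6.21 TPM in replicates 1, 2 and 3. A gene was called above or below it when the mean log2(TPM + 0.1) difference was at least 1 in size and the adjusted p of the one-sample limma test was under 0.05, with the Benjamini-Hochberg adjustment taken over all 13338 genes tested. Macrophage identity was checked on 10 marker genes, all of them above the reference, with a summed level of 5358 to 7386 TPM. The summed level of each list of markers of other cells was 24.4 to 42.1 TPM for neutrophils (10 genes), 9.17 to 12.5 TPM for endothelium (6 genes), 2.81 to 6.41 TPM for B cells (6 genes) and at most 1.62 TPM for dendritic, T and NK, erythroid and fibroblast markers. Of the neutrophil markers S100a9, which encodes a calcium-binding protein, was above the reference at 23.2, 13.0 and 21.6 TPM, S100a8, its partner, was neither at 12.2 ± 3.86 TPM, 5 were below it, and Ly6g, which defines neutrophils, was at 0 TPM in all libraries. The part of other cells in the results was not tested. RNAs that are known to stay in the nucleus differed between the libraries. The level of Malat1 was 128, 335 and 913 TPM in the order of the replicate numbers, and that of Neat1 was 12.9, 24.1 and 66.9 TPM. Transcripts annotated as retained introns held 2.73%, 3.07% and 3.54% of the TPM of protein-coding genes.

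Among the 9 genes, Acod1 was the highest in every library and Nos2 stood near the bottom. The level of Acod1 lay 4.92 ± 0.27 log2 units above the reference and that of Nos2 2.70 ± 0.42 log2 units below it (SD, n = 3). Acod1, Odc1 and Gch1 were called above the reference, Arg2, Ass1, Slc7a2 and Nos2 below it, Asl was neither, and Arg1, listed at 0, was under the 0.1 TPM mean needed for a test. Over all genes tested, 20.4% were called above the reference and 50.6% below it, so 3 above and 4 below among the 9 genes (8 tested) is close to the general pattern. The median log2 difference of the 9 genes was -1.61, with the untested Arg1 counted in at -6.05. Over all genes tested the median was -1.06. That set leaves out genes with a mean under 0.1 TPM, so these medians are not compared. The order of mean levels was Acod1, Odc1, Gch1, Asl, Arg2, Slc7a2, Ass1, Nos2 and Arg1. The libraries of neighbouring genes did not overlap from Acod1 down to Arg2, nor between Nos2 and Arg1. Those of Arg2 and Slc7a2, of Slc7a2 and Ass1, and of Ass1 and Nos2 did overlap. Within each library Arg2 was above Ass1 and Ass1 above Nos2, and the place of Slc7a2 among these varied.

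**Figure D1:**
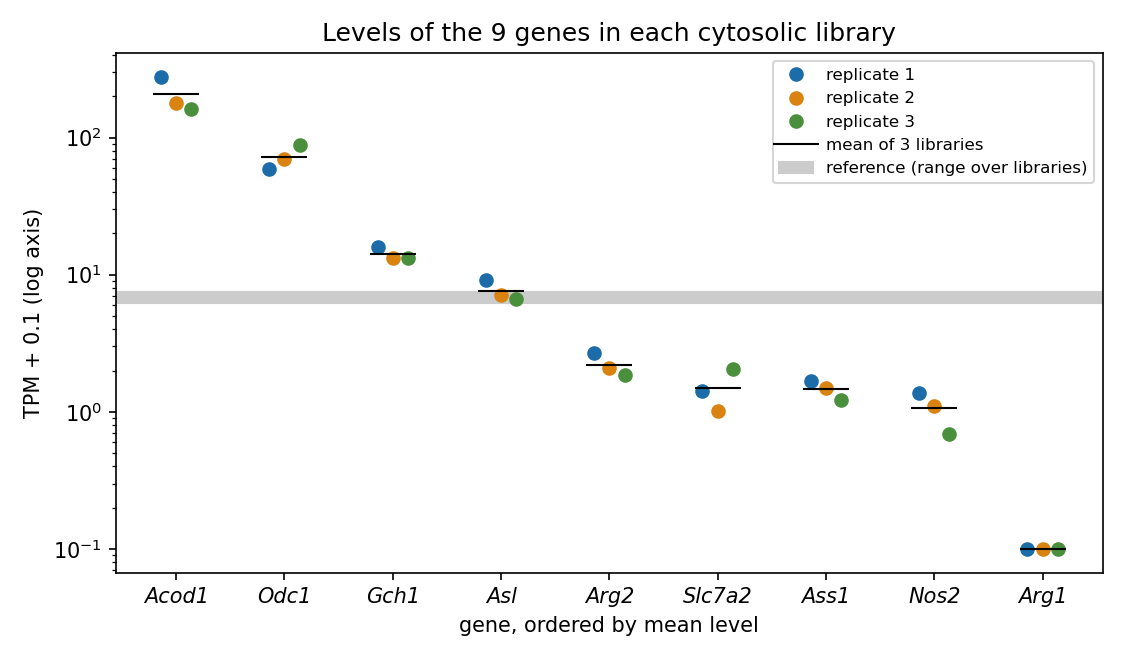
TPM + 0.1 on a log axis for each of the 9 genes, ordered by mean level. Points are the 3 libraries, short lines their mean, and the grey band the range of the reference over the libraries (6.08 to 7.38 TPM). Acod1 sits between 162 and 278 TPM, whereas Nos2, Ass1, Slc7a2 and Arg2 lie between 0.59 and 2.58 TPM, all under the band.

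The itaconate gene Acod1 (ENSMUSG00000022126.6, chr14:103046977-103056573, plus strand, mm10) gave 278, 179 and 162 TPM in replicates 1, 2 and 3, from 39492, 40732 and 44981 expected counts. The highest library was replicate 1, and every value exceeded every value of the other 8 genes. Acod1 held 75.5%, 65.4% and 58.8% of the summed TPM of the 9 genes in replicates 1, 2 and 3, and Odc1 15.9%, 25.4% and 32.1%. Among protein-coding genes Acod1 ranked 130, 177 and 204 by TPM. Its difference from the reference passed the test (adjusted p = 4.31e-05, limma) and had the same sign in 3 of 3 libraries. The gene has 1 annotated transcript and shares no stretch of 31 bases with a transcript of another gene, so its counts are free of the ambiguity described below for Ass1 and Odc1. The protein-coding genes nearest to it in level over the 3 libraries, by Euclidean distance of log2 TPM, were Rpl9 (0.13), Nfkbiz (0.14) and Rpl23 (0.16). Nfkbiz encodes the atypical inhibitor of NF-kB called IkB-zeta, and the others encode ribosomal proteins.

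Cs and Sdha, genes of the tricarboxylic acid cycle, were well below Acod1 in every library. Cs, which encodes citrate synthase, gave 24.3 ± 3.34 TPM, and Sdha, which encodes a succinate dehydrogenase subunit, 30.9 ± 3.08 TPM. Of 25 listed genes of itaconate synthesis, clearance and targets, 14 were above the reference, 4 below it and 6 neither, and the list median lay at 1.01 log2 units. Over all genes tested the shares were 20.4% above and 50.6% below. The list medians here and below also count untested genes. Beside Acod1, the highest were Nfkbiz at 204 ± 47.1 TPM and Atf3, a stress-responsive transcription factor gene, at 201 ± 98.2 TPM. Listed genes of itaconate breakdown and of the succinyl-CoA step differed in level. Clybl, which encodes the citramalyl-CoA lyase of that route, gave 1.38, 0.91 and 0.89 TPM, and Sugct, which encodes a CoA transferase, 0.24, 0.22 and 0.26 TPM. Both were called below the reference, as were Suclg2, a succinyl-CoA ligase subunit gene, at 2.90 ± 0.47 TPM and Abcg2, a membrane exporter gene, at 1.12 ± 0.55 TPM. Auh, the methylglutaconyl-CoA hydratase gene, at 4.82 ± 0.62 TPM and the ligase subunit genes Suclg1 and Sucla2, at 8.87 ± 1.31 and 8.10 ± 0.62 TPM, were neither above nor below.

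The nitric oxide synthase gene Nos2 (ENSMUSG00000020826.8, chr11:78920787-78960254, plus strand) gave 1.28, 1.01 and 0.59 TPM, from 298, 379 and 271 expected counts. Replicate 3 was the lowest. The level was 0.154 of the reference (adjusted p = 0.000445, limma) and below it in 3 of 3 libraries. Acod1 exceeded Nos2 by 7.62 ± 0.27 log2 units, or 197-fold. The difference was 7.20 log2 units in the second quantification and 6.70 with a pseudocount of 1 TPM. The Nos2 transcripts were mostly the full-length Nos2-201, with 97.7% ± 4.06 of the gene's TPM, although the second deposited quantification put 74.7% ± 8.29 there and 15.1% ± 5.44 on the shorter coding Nos2-203. The other synthase genes were nearly absent, since Nos3 gave 0.01 TPM in replicate 1 and 0 in the others, and Nos1 0.01 TPM in replicate 2 and 0 in the others. The protein-coding genes nearest to Nos2 in level were Rsph9 (0.07), Terf1 (0.17) and Ccdc28b (0.17), by the same distance.

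The arginase genes differed. Arg1 (ENSMUSG00000019987.9, chr10:24915221-24927484, minus strand) had 0 expected counts in all 3 libraries, for which the upper limit is 3 counts per library, or 0.0406, 0.0251 and 0.0206 TPM. These limits, like all limits and intervals here, cover counting error only. The second quantification assigned Arg1 1, 1 and 4 estimated counts, the last of them above that limit. Arg2 (ENSMUSG00000021125.6, chr12:79130777-79156301, plus strand), the mitochondrial arginase gene, gave 2.58, 1.99 and 1.74 TPM and was called below the reference at -1.61 ± 0.15 log2 units (adjusted p = 0.00019, limma). In the second quantification Arg2 gave 1.19, 0.796 and 0.539 TPM and Arg1 0.00588, 0.0031 and 0.0164 TPM, so Arg2 was the higher of the pair in every library of both quantifications. Arg2 also exceeded Nos2 in all 3 libraries, by 1.10 ± 0.28 log2 units. Exons of Arg2 and of Vti1b, a vesicle fusion gene, overlap on opposite strands, with 285 shared exonic bases, and Vti1b gave 19.9 to 22.5 TPM. The sources used here do not say whether the strand entered the counting, so part of the Arg2 value may be Vti1b reads. The 31-base stretches that Arg2-201 shares with transcripts of other genes on either strand made up 23.6% of all its stretches of that length, most of them with Vti1b.

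The citrulline recycling genes were unequal. Ass1 (ENSMUSG00000076441.9, chr2:31470207-31520672, plus strand) gave 1.59, 1.40 and 1.12 TPM, and Asl (ENSMUSG00000025533.15, chr5:130011258-130029247, minus strand) 9.09, 7.0 and 6.58 TPM. Every Asl library was above every Ass1 library. Asl exceeded Ass1 by 5.20-fold, with a difference for Ass1 minus Asl of -2.38 ± 0.12 log2 units. Ass1 was called below the reference (adjusted p = 0.000102, limma), whereas Asl was 0.19 ± 0.11 log2 units higher than it and was not called (adjusted p = 0.0586, limma). Ass1, whose product takes up the citrulline that nitric oxide synthase releases, exceeded Nos2 by 0.52 ± 0.27 log2 units, in 3 of 3 libraries but with overlapping ranges. The Ass1 value depends on how reads were divided between copies. Of its 31-base stretches 61.5% also occur in Gm5424, to which 1.4, 1.4 and 2.9 expected counts were assigned, against 138.6, 195.6 and 191.1 for Ass1. Asl had 8 annotated transcripts, of which Asl-205 held 84.5% ± 0.91 of the TPM.

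The arginine transporter gene Slc7a2 (ENSMUSG00000031596.15, chr8:40862396-40922308, plus strand) gave 1.32, 0.91 and 1.96 TPM, from 435.6, 501.6 and 1300.3 expected counts. Replicate 3 was the highest and replicate 2 the lowest. The level lay -2.21 ± 0.53 log2 units from the reference (adjusted p = 0.0015, limma), below it in 3 of 3 libraries. Slc7a1, which encodes the constitutive cationic transporter CAT1, gave 2.33, 2.07 and 2.41 TPM and exceeded Slc7a2 in each library, with a difference for Slc7a2 minus Slc7a1 of -0.72 ± 0.41 log2 units. Slc7a7, the light chain of an exchanger that carries arginine, exceeded Slc7a2 by 8.28-fold at 11.8 ± 1.00 TPM, and its heavy chain gene Slc3a2 gave 123, 122 and 121 TPM. Of 26 listed genes of arginine uptake and the urea cycle, 2 were above the reference (Slc3a2, and Oat, the ornithine aminotransferase gene, at 13.7 ± 2.19 TPM), 10 below it, 6 neither and 8 under the level needed for a test. The urea cycle genes Otc, Cps1 and Nags were at 0 TPM in every library. The list median, with the untested genes counted in, lay at -2.20 log2 units.

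Both alternative exons of Slc7a2 were represented. Exon A transcripts summed to 0.79, 0.48 and 0.95 TPM and exon B transcripts to 0.37, 0.34 and 0.85 TPM in replicates 1, 2 and 3. Exon A thus held 68.1%, 58.5% and 52.8% of the full-length TPM, with a mean of 59.8% ± 7.74 (SD, n = 3). The second quantification put 96.2%, 80.8% and 73.6% on exon A, so the share depends on the quantification, while the order of the libraries was the same in both. The remaining transcript, Slc7a2-205 (519 bases), holds neither exon and carried 9.84% ± 1.64 of the gene's TPM. That share rested on only 2.61, 2.55 and 5.65 expected counts, and the second quantification gave 11.25%, 9.51% and 0%. Slc7a2 shares 635 exonic bases with Gm26584, a long noncoding RNA gene on the opposite strand, which gave 0.05, 0.08 and 0.58 TPM. Gm26584 was assigned 8.4, 22.4 and 199.7 expected counts. Of the 31-base stretches of Slc7a2-201, 4.52% also occur in transcripts of 4450 other genes, and 1.74% in Gm26584. Whether the strand entered the counting is not stated, so part of the Slc7a2 value may be reads of other genes.

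**Figure D2:**
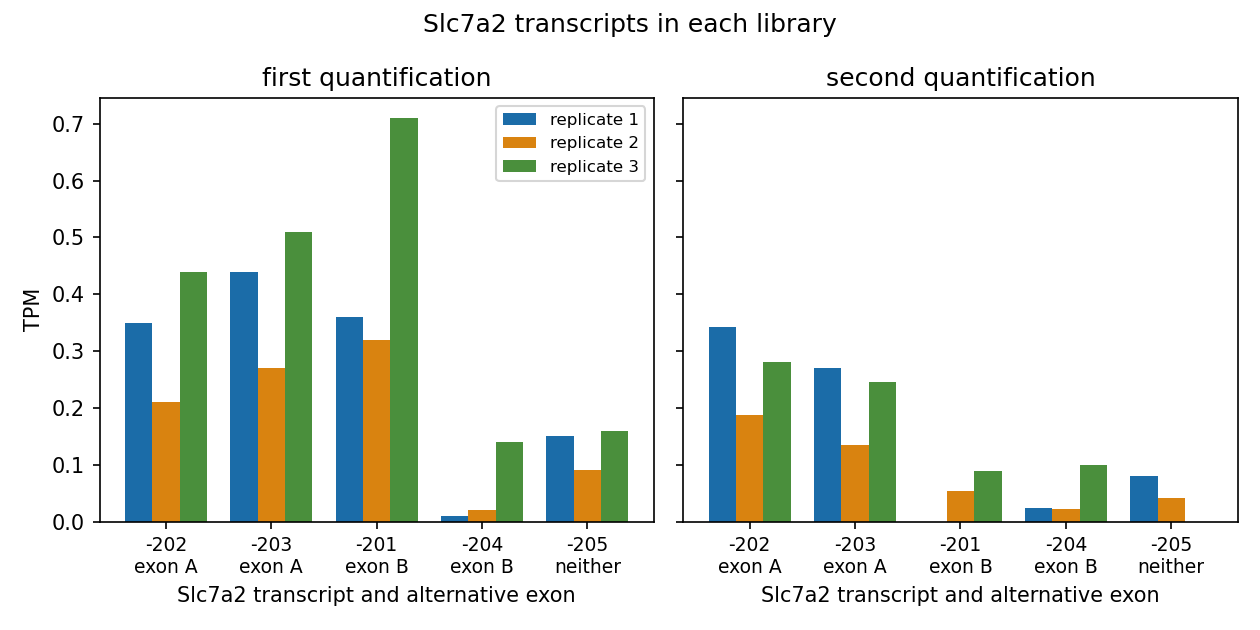
TPM of the 5 annotated Slc7a2 transcripts in each library (bars), in the first quantification on the left and the second on the right, grouped by the alternative exon they carry. In the first, Slc7a2-201 of replicate 3 is the highest bar at 0.71 TPM, and in the second the exon A transcripts lead in every library.

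The cofactor gene Gch1 (ENSMUSG00000037580.10, chr14:47153895-47189413, minus strand) gave 15.9, 13.0 and 13.2 TPM. It lay 1.09 ± 0.01 log2 units above the reference (adjusted p = 0.000147, limma), just past the minimum difference of 1. The call was lost in the second quantification (0.50 log2 units), with a pseudocount of 1 TPM (0.99) and when the reference took in genes from 5 TPM upward (0.06). Gchfr, which encodes the feedback protein that restrains the enzyme, gave 0.08, 0.02 and 0.02 TPM. The later enzymes of tetrahydrobiopterin synthesis were lower than Gch1 in all 3 libraries, by 0.57 ± 0.13 log2 units for Pts and by 1.83 ± 0.05 for Spr. Qdpr, which regenerates the cofactor, gave 17.1 ± 2.13 TPM. Of 19 listed genes of nitric oxide synthesis, cofactor and handling, 4 were above the reference, 3 below it, 6 neither and 6 under the level needed for a test, with a list median of -0.75 log2 units. The highest were Cyb5r3, a cytochrome b5 reductase gene, at 25.4 ± 1.92 TPM, Qdpr, and Adh5, whose product breaks down S-nitrosoglutathione, at 14.3 ± 2.03 TPM. Gch1-201 carried 98.0% ± 1.90 of the TPM of Gch1, and the retained-intron transcript Gch1-202 0.565%, 1.31% and 4.17% in replicates 1, 2 and 3, the same order as Malat1 and Neat1. The part of RNA from the nucleus in these values was not tested.

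Upstream sequence in the RefSeq table (GRCm38.p6) was found for 4 of the 9 genes, Acod1, Ass1, Gch1 and Odc1, and the 250 bases before each RefSeq start were searched on both strands for 6 motifs. The consensus of NF-kB, the main transcription factor activated through Toll-like receptor 4, was found in Gch1 alone of the 4, as against 7.25% of all 32851 windows. The TATA box (TATAAA, 12.4% of windows) was found in Acod1, at -28 from the RefSeq start, and in Gch1, at -188. The E-box (CACGTG, 6.02% of windows) was found in Ass1, at -36. The Acod1 and Ass1 matches lie past the GENCODE start, inside the annotated genes. The interferon-stimulated response element (2.98% of windows), the C/EBP motif (TTGCNNAA, 9.56%) and the AP-1 motif (TGANTCA, 6.75%) matched none of the 4. No matches overlapped, and a match is a description of letters, not a measured site. The Gch1 stretch is shown because it is the one with the NF-kB consensus; it is on the minus strand (chr14:47189414-47189663), reads 5′ to 3′ toward the gene, and has in capitals the TATA box, which matched on the other strand and so reads TTTATA here, and then the NF-kB consensus.
Gch1 upstream: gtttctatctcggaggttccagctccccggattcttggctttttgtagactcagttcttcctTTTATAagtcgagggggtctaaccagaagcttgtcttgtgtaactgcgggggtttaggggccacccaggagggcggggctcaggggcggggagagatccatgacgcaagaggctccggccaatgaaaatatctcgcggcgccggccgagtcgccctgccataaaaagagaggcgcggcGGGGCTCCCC

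The polyamine gene Odc1 (ENSMUSG00000011179.8, chr12:17544794-17551505, plus strand) gave 58.4, 69.4 and 88.5 TPM, from 6660.6, 12625.5 and 19574.2 expected counts. Replicate 3 was the highest and replicate 1 the lowest, whereas Acod1 and Nos2 were highest in replicate 1 and lowest in replicate 3. In the second quantification the TPM of Odc1 was level, at 26.8, 26.5 and 26.6, while that of Gch1 was 7.30, 5.04 and 4.09. The estimated counts of Odc1 there were 7100.9, 13239.7 and 20589.4, close to the expected counts of the first quantification. The level of Odc1 was 10.7 times the reference (adjusted p = 0.000231, limma) and above it in 3 of 3 libraries. Acod1 was higher than Odc1 by 2.25, 1.36 and 0.87 log2 units in replicates 1, 2 and 3. The gap was smallest in replicate 3. The protein-coding genes nearest to Odc1 in level were Ier3 (0.25), Hsp90aa1 (0.34) and Slc11a1 (0.34), by the same distance. The antizyme gene Oaz1, whose product sends ornithine decarboxylase to the proteasome, gave 133, 94.2 and 94.5 TPM. It exceeded Odc1 in every library of the first quantification, with a difference for Odc1 minus Oaz1 of -0.57 ± 0.56 log2 units. In the second quantification Oaz1 was the higher in replicates 1 and 2, and Odc1 in replicate 3, at 26.6 TPM. Azin1, which encodes the inhibitor of antizyme, was lower than Odc1 by 1.10 ± 0.40 log2 units, and Srm, the spermidine synthase gene, by 4.31 ± 0.35. For Azin1 the second quantification gave a mean difference of 0.35 log2 units, and Azin1 was the higher in replicate 1, at 27.6 TPM. Of 21 listed genes of polyamine metabolism, 8 were above the reference, 3 below it, 8 neither and 2 under the level needed for a test, and the list median lay at 0.02 log2 units. The highest were Sat1, which encodes the acetyltransferase that starts polyamine breakdown, at 153, 111 and 121 TPM, followed by Slc3a2 and Oaz1.

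Most of the Odc1 signal lay on the coding transcript Odc1-201, with 80.3%, 73.3% and 77.8% of the gene's TPM. Odc1-205, annotated as a target of nonsense-mediated decay, held 21.7% ± 3.69, or 12.4% ± 1.69 in the second quantification. Odc1-205 shares 1477 of its 1982 exonic bases with Odc1-201, and of the other 505 bases 421 lie beyond the 3′ end of Odc1-201, so its share also takes in reads past that end. The 5 retained-intron transcripts of Odc1 held 1.04% ± 0.39. Of the 31-base stretches of Odc1-201, 52.0% also occur in transcripts of 21 other genes, most of them in Gm7993, to which 12.9, 27.6 and 29.4 expected counts were assigned. The Odc1 level thus depends on how the authors' quantification divided such reads.

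**Figure D3:**
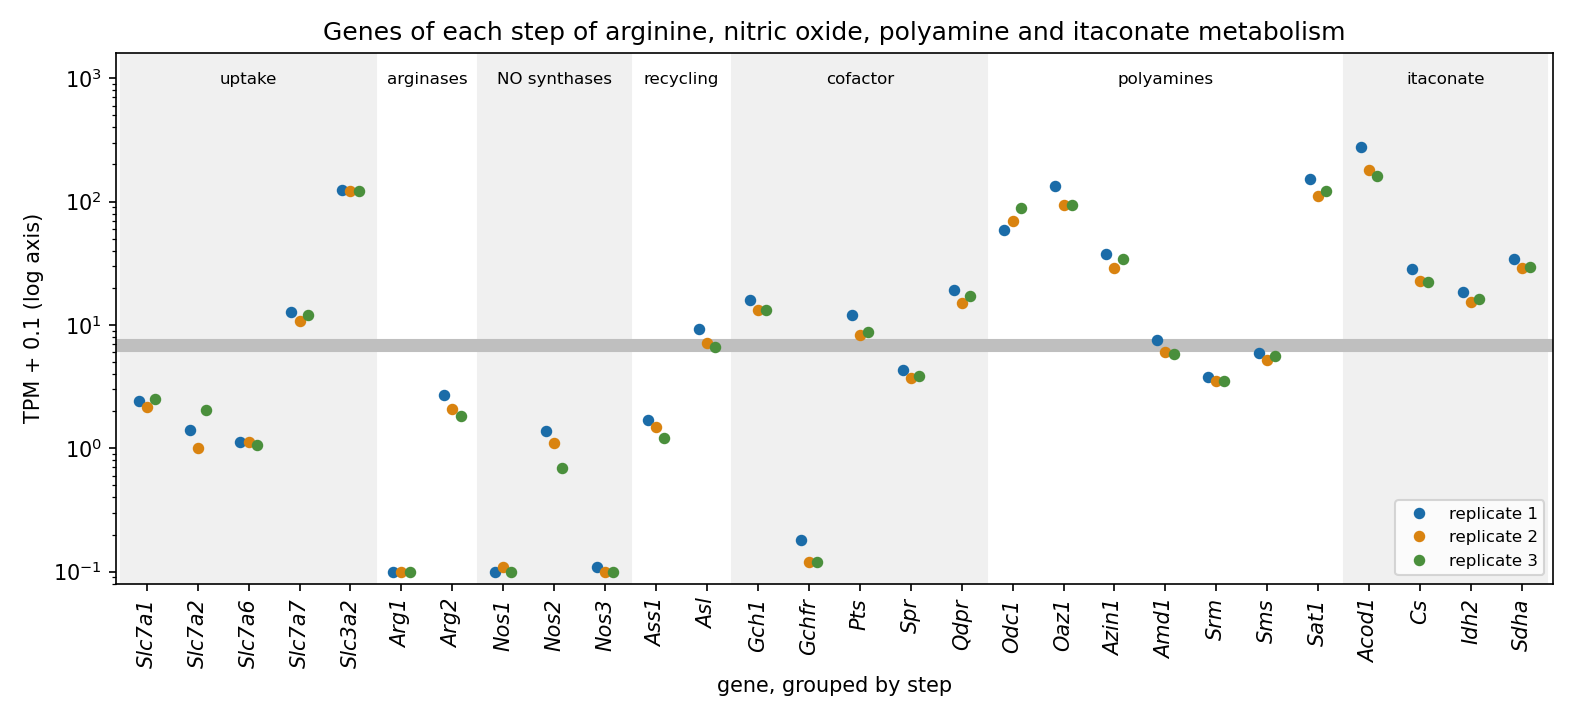
TPM + 0.1 on a log axis for the members and partner genes of each step, grouped in shaded bands. Points are the 3 libraries and the grey line is the range of the reference. Slc3a2, Oaz1, Sat1 and Acod1 lie above 90 TPM in every library, and Arg1, Nos1, Nos3 and Gchfr at or under 0.08 TPM.

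Regulators known to act on Acod1, Nos2, Arg1 or Odc1 were mostly abundant. Of 17 listed genes, 13 were above the reference, 2 below it and 2 neither, with a list median of 2.10 log2 units. The shares over all genes tested were 20.4% above and 50.6% below. Irf1, an interferon-responsive factor known to be needed for Nos2, gave 191, 122 and 129 TPM, and Nfkb1, which encodes an NF-kB subunit, 59.8 ± 2.97 TPM. The 2 below the reference, named after their values were seen, were Klf4, a factor of alternative activation, at 0.89 ± 0.09 TPM and Ahr, the aryl hydrocarbon receptor gene, at 1.47 ± 0.14 TPM. Stat6 and Il4ra, which carry the interleukin 4 signal toward Arg1, gave 29.6 ± 3.37 and 29.3 ± 5.01 TPM. Arg1 was listed at 0 in the same libraries.

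The 9 genes differed widely in how steady they were between the libraries. Spread was measured on expected counts scaled by TMM, as the SD of log2 CPM (counts scaled to library size), and tested with the edgeR goodness of fit to the dispersion trend, which asks whether a gene varied more than genes of its abundance. Of 12330 genes that reached 10 counts in each of the libraries, 287 or 2.33% passed (Benjamini-Hochberg threshold 0.05), and the median SD over all of them was 0.12. Of the 8 members with enough counts, 1 passed. Gch1 was the steadiest, at 68.4, 67.8 and 68.2 normalised CPM. Slc7a2 was the most variable, at 12.4, 10.8 and 22.6 normalised CPM, with an SD of 0.57 and an adjusted p of 0.00052 (edgeR, Benjamini-Hochberg, n = 3). Replicate 3 stood 2.09-fold above replicate 2. The call rested on replicates 2 and 3, since without replicate 2 the adjusted p was 0.176 (SD 0.61) and without replicate 3 it was 1.0 (SD 0.14). Malat1, Neat1 and Gm26584 were also highest in replicate 3, and their part in the Slc7a2 result was not tested.

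Odc1 and Nos2 had the next largest spreads, in opposite directions. Odc1 gave 189, 270 and 339 normalised CPM (SD 0.43, edgeR, Benjamini-Hochberg adjusted p = 0.0717), and Nos2 8.49, 8.15 and 4.74 (SD 0.47, adjusted p = 0.441). Neither passed the threshold, which does not show that they were steady. Acod1 gave 1119, 872 and 779 normalised CPM (SD 0.27), and Arg2, Ass1 and Asl had SDs of 0.15, 0.18 and 0.09, none of them past the threshold (edgeR, Benjamini-Hochberg adjusted p = 0.99999 for each). Acod1, Nos2, Arg2, Ass1 and Asl were lowest in replicate 3, and Slc7a2 and Odc1 highest there. Malat1, Neat1, the retained-intron share and depth rose in the order of the replicate numbers. Odc1 rose in that order, and Acod1, Nos2, Arg2 and Asl fell. The part of nuclear RNA or depth in these orders was not tested.

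**Figure D4:**
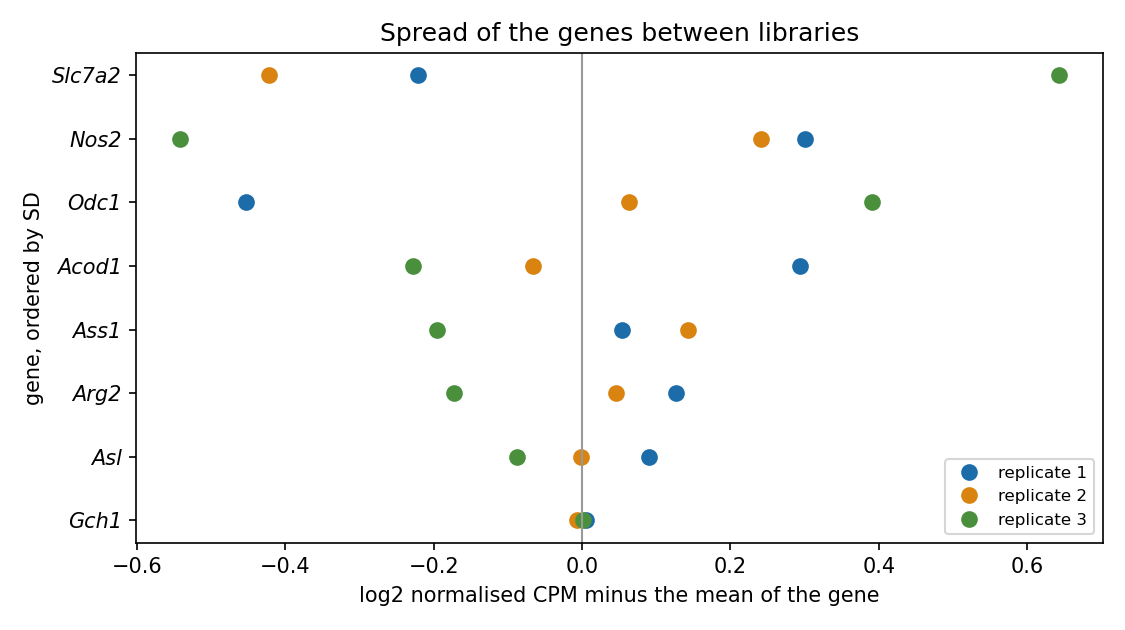
Log2 normalised CPM of each gene in each library minus the gene's mean over the 3 libraries, ordered by SD (points; Arg1 has no counts and is left out). The points of Gch1 nearly coincide, whereas those of Slc7a2 run from replicate 2 to replicate 3 over a 2.09-fold range.

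For the 15 differences between the genes of fixed pairs, the sign was the same in 3 of 3 libraries of the first quantification. An exact sign-flip test (two-sided) on that quantification gave p = 0.25 for each, the smallest value that 3 libraries allow. In the second quantification the sign of Odc1 minus Oaz1 and that of Odc1 minus Azin1 differed between libraries.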

How the data were processed

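Total RNA from the cytosol was sequenced in 3 libraries, 1 group from 1 µg of RNA each. Per the text files deposited beside the tables, reads were quantified by the authors on mm10 with GENCODE M21, once from transcriptome alignments (first quantification) and once straight from FASTQ files (second). Per the file headers, the authors deposited expected counts, TPM and FPKM per gene in the first, and estimated counts and TPM per transcript in both. The aligner, quantifiers and strand settings are not stated in these sources.

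The 55536 annotated genes were summed to 55418 symbols, all matched to identifiers. Levels were tested with limma 3.58.1 on log2(TPM + 0.1) minus the reference, for genes whose mean reached 0.1 TPM. Spread was tested with edgeR 4.0.16 (R 4.3.3) on rounded expected counts, prior count 2, for genes that reached 10 counts in each library. DESeq2 1.42.0 size factors and FPKM served as alternatives. Shared stretches were 31-base matches to GENCODE M21 transcripts on either strand. The level and spread tests were also run on simulated data with the same dispersion or SD for all genes. That run does not show how they perform on these libraries. Every pair of libraries differed beyond counting error (chi-square per degree of freedom 46.2 to 162).

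The members and gene lists were chosen with earlier results of these data known. All members were named, with the 3 highest genes of each list, the partners in fixed pairs and the 3 nearest genes to Acod1, Nos2 and Odc1. Other genes were named after their values were seen, and a few results that the rule covers are not reported here.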

Additional observations from a re-analysis of the deposited data

How the results depend on the processing

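The levels of Acod1, Odc1, Arg2, Ass1, Slc7a2 and Nos2 kept their direction and call under every alternative that tested them, and Asl, at 0.19 log2 units, stayed uncalled, with a negative sign in the second quantification (-0.28) and when the reference took in genes from 5 TPM upward (-0.83). The count of genes above the reference was 2726, or 1422 against that reference and 2678 to 2746 with 1 library left out. The count below it was 6753, or 48879 with no filter on low values, 2694 among genes whose mean reached 1 TPM and 6461 to 6872 with 1 library left out. Genes with a spread beyond the trend numbered 287, and 88 to 156 with 1 library left out. Of the leading transcripts, Slc7a2-201 moved most between quantifications, from 33.0% to 8.22% of the gene's TPM. Differences between the genes of fixed pairs that involve Arg1, Nos3 or Gchfr are set largely by the pseudocount. Gch1 minus Gchfr was 6.68 log2 units, or 3.85 with a pseudocount of 1 TPM. No paired analysis was possible because the samples form 1 group. The causes were not tested. The spread of Slc7a2 was also tested without the counts of Slc7a2-205, an alternative chosen after seeing the data, but these were only 2.61, 2.55 and 5.65 counts, so it says nothing about reads shared with Gm26584. Depth limits Arg1, with 0 counts in the first quantification and 1, 1 and 4 in the second.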
